A study of Mus musculus with 8 samples.

Results

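The 48 genes described here drive or mark the cell division cycle. They were grouped by known function and fall into 6 classes: G1 cyclins and their kinases (8 genes), cyclin-dependent kinase (CDK) inhibitors (6), the Rb and E2F families (8), DNA replication (7), G2 and mitosis (15), and *Myc* and p53 regulators (4). All 48 are among the 24341 genes of the table, and 46 of them passed the minimum mean of 0.5 FPKM and are among the 13777 genes tested. RNA came from single mouse pancreas buds, all labelled as strain CD1, at E11.0, at about 40 somites, with 5 WT buds and 3 *Lats1/2PanKO* buds, each a library of its own. The *Lats1/2PanKO* buds carried Pdx1Creearly with floxed alleles of both *Lats1* and *Lats2* (Lats1f/f and Lats2f/f), so that Cre under the *Pdx1* promoter removes the Hippo kinases LATS1 and LATS2 from pancreatic epithelium but not from the other cells of the bud. The labels give the controls only as WT, while the methods describe controls that could be WT or heterozygous littermates. Per the methods, mesenchyme was removed with forceps, and the RNA was depleted of ribosomal RNA. Mesenchyme markers were still expressed in every library, as given below, so the levels are those of mixed cells and not of epithelium alone. FPKM counts fragments scaled to transcript length and to the mapped total and is thus a level per length, so levels of different genes can be set side by side.

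In the cell cycle, D-type cyclins with CDK4 or CDK6 and E-type cyclins with CDK2 phosphorylate the Rb proteins, which frees E2F factors to switch on genes for DNA replication. Later genes, for mitosis, are held down by the DREAM complex and raised by MYBL2 and FOXM1, while the CDK inhibitors, among them the p53 target *Cdkn1a*, slow these kinases. LATS1 and LATS2 keep the coactivators YAP1 and TAZ out of the nucleus, and Hippo signaling is known for restraining growth of many tissues. The pancreatic progenitors of this stage divide rapidly. The comparison asks whether deletion of both kinases changed the RNA of this machinery.

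No member passed the adjusted threshold, and the machinery as a whole lay close to WT. Of 46 tested members, 0 had an adjusted p under 0.05 by limma, where 2 of all 13777 tested genes did (0.0145%). An unadjusted p under 0.05 was reached by 3 members: the G1 cyclin gene *Ccnd1* and the CDK inhibitor gene *Cdkn1a* were higher in *Lats1/2PanKO* buds, and the spindle checkpoint kinase gene *Bub1* was lower. Those 3 members are 6.52% of 46, below the share of all tested genes in either direction (11.3%, of which 6.29% were higher and 4.99% lower). The same 3 genes were the ones in which the groups did not overlap, against 7.51% of all tested genes (4.46% with all *Lats1/2PanKO* values above WT and 3.06% below). The median log2 fold change over the members was -0.04, with 14 members higher and 32 lower, and over all tested genes it was -0.01, with 6461 higher and 7316 lower.

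The promoters of 7 members are shown because they carry the elements by which these classes are known: E2F sites in replication genes, the cell cycle genes homology region (CHR) and CCAAT boxes in mitosis genes, and p53 half-sites in *Cdkn1a*. The sequences are from RefSeq on GRCm38.p6, run 5′ to 3′ on the gene's strand, and cover up to 190 bases before the annotated start. Capitals mark E2F matches (TTTCGCGC or TTTGGCGC), CHR matches (TTTGAA or TTCGAA) and CCAAT matches, read on both strands, and in *Cdkn1a* only the p53 half-sites. The replication genes *Mcm5* and *Mcm6* encode subunits of the replicative helicase, and in both, E2F matches on opposite strands overlap in 1 run of capitals.
Mcm5 (chr8:75109319-75109508, plus strand): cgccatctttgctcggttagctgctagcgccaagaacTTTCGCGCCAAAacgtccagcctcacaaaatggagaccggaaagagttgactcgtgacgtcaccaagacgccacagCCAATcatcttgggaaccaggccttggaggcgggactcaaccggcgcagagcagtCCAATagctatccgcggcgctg
Mcm6 (chr1:128359706-128359895, minus strand): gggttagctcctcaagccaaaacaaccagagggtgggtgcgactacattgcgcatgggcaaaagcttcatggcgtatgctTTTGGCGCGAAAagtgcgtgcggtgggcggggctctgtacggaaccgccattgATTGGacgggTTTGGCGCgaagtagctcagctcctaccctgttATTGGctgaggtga
The genes that follow act in G2 and mitosis. *Cdk1* encodes the mitotic kinase, *Cdc20* an activator of the anaphase-promoting complex, *Top2a* a topoisomerase that untangles chromosomes, and *Mki67* the proliferation antigen Ki-67. TTCGAA in *Top2a* is its own reverse complement and counts on both strands.
Cdk1 (chr10:69352939-69353102, minus strand): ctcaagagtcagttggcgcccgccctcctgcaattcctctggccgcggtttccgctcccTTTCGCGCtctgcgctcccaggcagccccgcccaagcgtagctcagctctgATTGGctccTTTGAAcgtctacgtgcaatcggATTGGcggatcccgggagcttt
Cdc20 (chr4:118437353-118437533, minus strand): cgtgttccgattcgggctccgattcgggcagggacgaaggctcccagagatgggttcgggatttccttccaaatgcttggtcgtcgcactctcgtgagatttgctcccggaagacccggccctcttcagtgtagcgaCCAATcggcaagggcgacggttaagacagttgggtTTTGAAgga
Top2a (chr11:99024190-99024379, minus strand): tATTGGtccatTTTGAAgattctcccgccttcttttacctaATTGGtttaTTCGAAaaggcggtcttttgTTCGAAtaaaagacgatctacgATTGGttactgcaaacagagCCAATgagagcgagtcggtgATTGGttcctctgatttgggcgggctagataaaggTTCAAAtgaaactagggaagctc
Mki67 (chr7:135716380-135716569, minus strand): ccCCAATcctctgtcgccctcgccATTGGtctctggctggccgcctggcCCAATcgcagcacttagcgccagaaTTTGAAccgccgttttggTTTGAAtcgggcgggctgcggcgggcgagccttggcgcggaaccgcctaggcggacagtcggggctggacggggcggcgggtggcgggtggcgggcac
*Cdkn1a* encodes the inhibitor p21.
Cdkn1a (chr17:29090789-29090975, plus strand): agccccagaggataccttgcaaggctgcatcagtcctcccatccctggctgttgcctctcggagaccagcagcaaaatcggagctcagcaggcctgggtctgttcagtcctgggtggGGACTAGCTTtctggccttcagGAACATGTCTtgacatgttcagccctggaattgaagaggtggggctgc

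A promoter window, from 250 bases before to 50 bases after the start, was given for 37 of the 48 members. *Ccnd1*, *Ccnd2*, *Ccne2*, *Rb1*, *E2f4*, *E2f5*, *Mcm4*, *Ccna2*, *Aurkb*, *Foxm1* and *Myc* had none. An E2F match lay in the window of 4 of 6 replication genes (*Mcm3*, *Mcm5*, *Mcm6* and *Mcm7*), and 0.929% of all 27025 genes with a window hold one. A CHR match lay in 9 of 12 windows of the G2 and mitosis class and in 21.7% of all genes, and a CCAAT match in 10 of 12 and in 41.1%. All 6 replication genes with a window held CCAAT. The TEAD motif GGAATG, recognised by the DNA-binding partners of YAP1 and TAZ, was found in 3 of 37 members (*Ccnd3*, *Rbl1* and *Mcm3*) and in 16.6% of all genes. p53 half-sites were found in 6 members (*Cdkn1a*, *Cdkn2d*, *Bub1b*, *Birc5*, *Trp53* and *Mdm2*) and in 9.55% of all genes. These matches describe letters in the window and were not tested for binding.

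**Figure D1:**
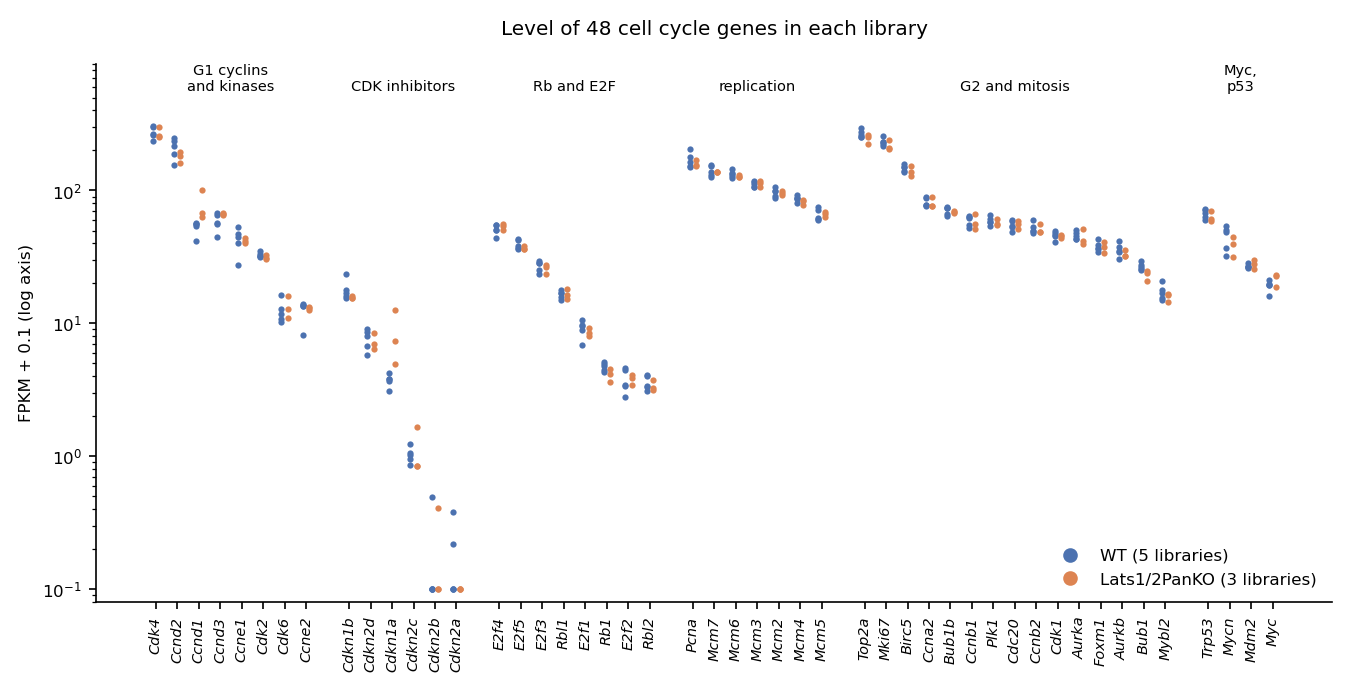
FPKM + 0.1 on a log axis for all 48 genes, ordered by class and level; each point is a library, blue for the 5 WT and orange for the 3 Lats1/2PanKO buds. The orange points lie among or beside the blue ones for most genes, and stand above all of them for Ccnd1 and Cdkn1a and below for Bub1.

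As to level, the WT buds expressed the machinery of division strongly. The highest mean over the 8 libraries was 272 FPKM for *Cdk4*, the G1 kinase partner of the D-type cyclins, followed by 259 FPKM for *Top2a*, 227 FPKM for *Mki67* and 197 FPKM for *Ccnd2*. The replication class ran from 66.1 FPKM (*Mcm5*) to 166 FPKM (*Pcna*, the sliding clamp of the replication fork), and the G2 and mitosis class from 16.6 FPKM (*Mybl2*) to 259 FPKM. Of the 6 CDK inhibitors among the members, none exceeded a mean of 17.0 FPKM, the value of *Cdkn1b*, while *Cdkn1c*, an inhibitor outside the 48, was at 164 to 249 FPKM. *Cdkn2a* was listed at 0.279 and 0.121 FPKM in WT replicates 1 and 4 and at 0 in the other libraries. *Cdkn2b* was listed at 0.398 FPKM in WT replicate 2, at 0.305 FPKM in *Lats1/2PanKO* replicate 3 and at 0 elsewhere, and neither gene was tested. These neighbouring INK4 inhibitor genes lay near the worth of a few fragments. For a transcript length of 1000 bases, a single fragment amounted to 0.0987 to 0.106 FPKM, and in the shallowest library, WT replicate 5, to 0.133 FPKM.

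Of the deleted genes, *Lats1* had a mean of 15.6 FPKM in WT and 12.1 FPKM in *Lats1/2PanKO* buds (SD 0.905 and 1.87, n = 5 and 3), without overlap (adjusted p = 0.269 by limma). The means of *Lats2* were 13.8 and 12.3 FPKM, with overlap (adjusted p = 0.589 by limma). Both were read over the whole gene and with RNA from undeleted cells included. Neither passed the adjusted threshold, so these values are only a weak check of the labels. Epithelial RNA differed between buds: 14 epithelium markers summed to 226 to 297 FPKM in WT buds and to 526, 458 and 1103 FPKM in *Lats1/2PanKO* replicates 1, 2 and 3, and 14 of 14 were higher (12 without overlap). Summed mesenchyme markers were at 640.4 to 819 FPKM in WT buds and at 481, 678 and 288 FPKM in the *Lats1/2PanKO* replicates, with 13 of 14 tested markers lower. Endothelium markers summed to 118 to 200.4 FPKM against 128, 121 and 82.7 FPKM, pancreas progenitor markers to 101 to 154 FPKM against 216, 165 and 418 FPKM, and no marker of these 4 lists was listed at 0 in any library. Of the 10 progenitor markers, 9 were higher in *Lats1/2PanKO* buds and 1, *Ptf1a*, was lower. *Pdx1* was at 9.96 to 21.8 FPKM in WT buds and 15.3 to 48.5 FPKM in *Lats1/2PanKO* buds. *Ptf1a* was at 1.37 to 3.02 and 1.61 to 2.61 FPKM (log2 fold change -0.15), and both genes overlapped between the groups. Liver markers summed to 98.3 to 170.4 FPKM in WT buds and to 172, 130.0 and 377 FPKM in the *Lats1/2PanKO* replicates, with 8 of 8 tested markers higher. Most of each sum was a single gene, *Ttr*, at 83.1 to 142 FPKM in WT buds and at 148, 107 and 318 FPKM in the *Lats1/2PanKO* replicates. No other liver marker exceeded 13.5 FPKM in any library. Red blood cell markers varied most among WT buds, from 2633 FPKM in replicate 1 to 15761 FPKM in replicate 4, against 7963 to 10162 FPKM in *Lats1/2PanKO* buds. Leukocyte markers summed to 11.5 to 29.9 against 22.3 to 31.7 FPKM, and nerve and neural crest markers to 16.7 to 23.7 against 19.2 to 33.0 FPKM. *Lats1/2PanKO* replicate 3 thus held the extreme sums for epithelium, mesenchyme, endothelium, progenitor and liver markers, and WT replicate 5 was the shallowest library. In bulk RNA, fewer cells of a type and less RNA per cell cannot be told apart. The part of this difference in the results below was not tested. Values without replicate 3 are given for *Ccnd1*, *Cdkn1a*, *Bub1* and some of the other genes and lists, not for all that differed.

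**Figure D2:**
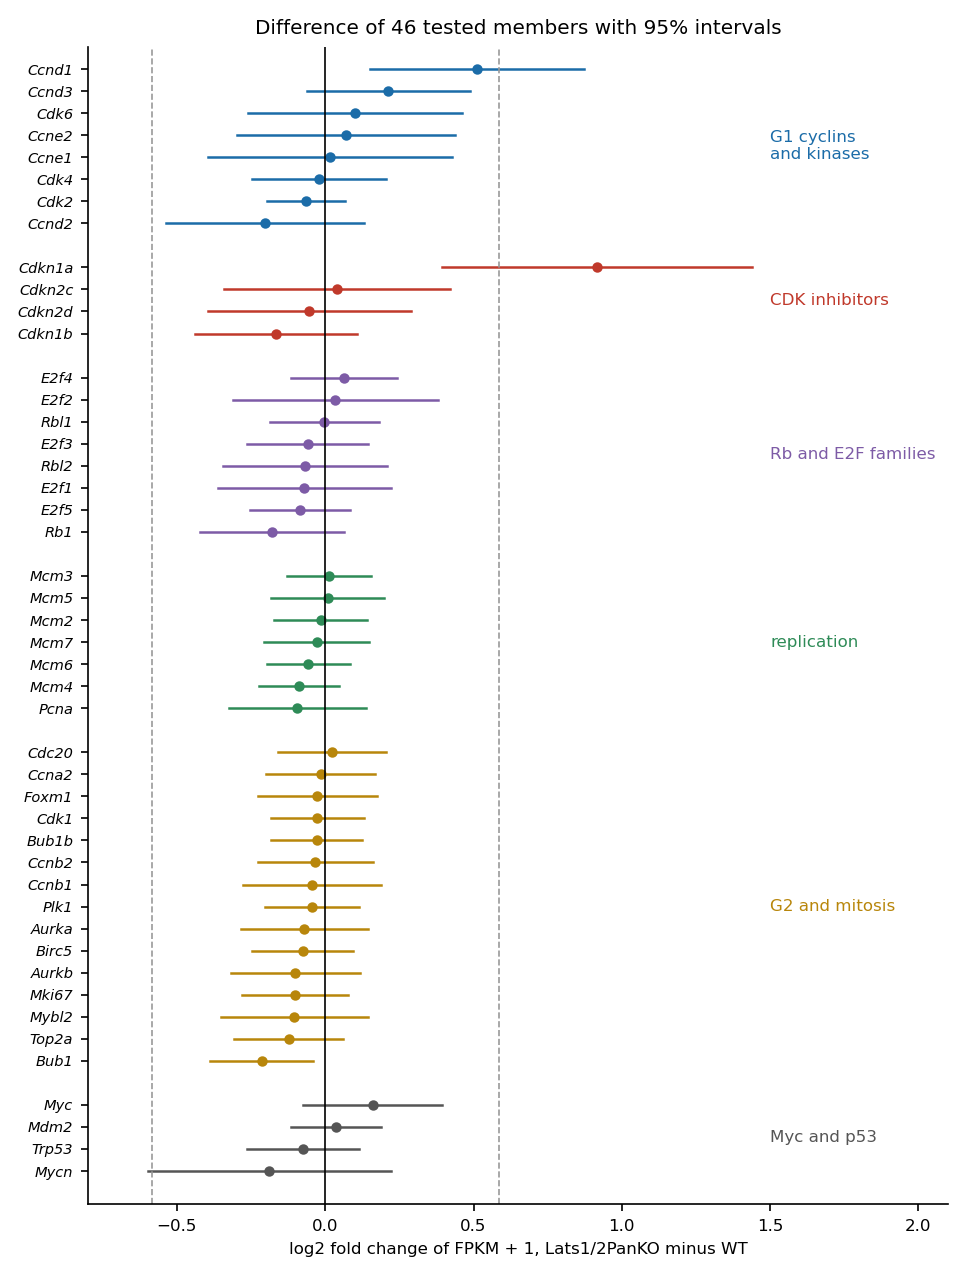
Log2 fold change of FPKM + 1 (Lats1/2PanKO minus WT) of the 46 tested members, by class, with 95% intervals from limma; dashed lines mark a change of 1.5-fold either way. The intervals of 43 members lie between the dashed lines, and those of Ccnd1, Cdkn1a and Mycn cross one.

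For most members the data bounded the difference in bulk RNA narrowly. The 95% interval of the log2 fold change of FPKM + 1 lay within 1.5-fold either way for 43 of 46 members (93.5%). The exceptions were *Ccnd1*, *Cdkn1a* and *Mycn*, and the share of all tested genes was 70.7%. For low genes such as *Cdkn2c* the added 1 FPKM makes the interval narrower than on FPKM itself. The intervals do not bound a change within the epithelium alone. Members are well expressed, so the same was counted above a mean of 10 FPKM, where the interval lay within 1.5-fold for 37 of 39 members (94.9%) and for 5969 of 6929 genes (86.1%). At that level the median residual SD on the log2 scale was 0.119 for members and 0.1298 for all genes, and the median size of the log2 fold change was 0.065 and 0.083. These counts describe the members and were not tested.

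*Ccnd1* (chr7:144929931-144939925) encodes cyclin D1, which carries growth signals to CDK4 and CDK6. Its level was 54.4, 56.3, 56.7, 56.0 and 41.6 FPKM in WT replicates 1 to 5 and 67.8, 63.0 and 101 FPKM in *Lats1/2PanKO* replicates 1 to 3. All 3 *Lats1/2PanKO* values exceeded the WT values, with replicate 3 far above the others, and WT replicate 5 lay below its group. The means were 53.01 ± 6.44 FPKM (SD, n = 5) and 77.2 ± 20.5 FPKM (SD, n = 3), a ratio of 1.46. The log2 fold change was 0.51 (standard error 0.16, 95% interval 0.15 to 0.87, adjusted p = 0.30 by limma), and an exact two-sided permutation test over the 56 ways to divide the libraries gave p = 0.0179, the smallest it can give. Groups without overlap give this value or one near it, so the permutation p restates the lack of overlap here and for *Cdkn1a* and *Bub1*. Without *Lats1/2PanKO* replicate 3 the log2 fold change of *Ccnd1* was 0.31 and the ratio 1.23. *Ccnd1* also stands in a list of TEAD target genes that the study chose on these samples, so its direction is not independent evidence about such targets.

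The other D-type cyclins overlapped between the groups. *Ccnd3* was at 55.8, 65.7, 56.5, 67.2 and 44.5 FPKM in the WT replicates and at 66.9, 65.7 and 67.3 FPKM in the *Lats1/2PanKO* replicates. The *Lats1/2PanKO* values sat together at the top of the WT range (log2 fold change 0.21, 95% interval -0.06 to 0.49, adjusted p = 0.569 by limma). *Ccnd2* was at 188, 156, 249, 235 and 214 FPKM in WT buds and at 181, 196 and 160.2 FPKM in *Lats1/2PanKO* buds, all 3 within the WT range (log2 fold change -0.20, 95% interval -0.54 to 0.13, and -0.13 without replicate 3). The 3 D-type cyclins together had a mean sum of 319 FPKM in WT (SD 38.3, n = 5) and 323 FPKM in *Lats1/2PanKO* buds (SD 6.32, n = 3). *Ccnd1* made up 18.2%, 20.3%, 15.7%, 15.6% and 13.8% of that sum in the WT replicates and 21.5%, 19.4% and 30.7% in the *Lats1/2PanKO* replicates. The share in *Lats1/2PanKO* replicate 2 lay within the WT range, so the shares overlapped.

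Of the G1 kinases, *Cdk4* was at 262, 266, 305, 298 and 236 FPKM in WT buds and at 257, 299 and 252 FPKM in *Lats1/2PanKO* buds, with full overlap (log2 fold change -0.02, 95% interval -0.25 to 0.21). The log2 fold changes of the remaining G1 genes were 0.10 for *Cdk6* (-0.04 without replicate 3), -0.07 for *Cdk2*, 0.02 for *Ccne1* and 0.07 for *Ccne2*, the E-type cyclins being the partners of CDK2. *Ccne2* was low in WT replicate 5 alone, at 8.03 FPKM against 13.3 to 13.8 FPKM in the other WT buds. The class median was 0.04, with 5 of 8 genes higher.

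**Figure D3:**
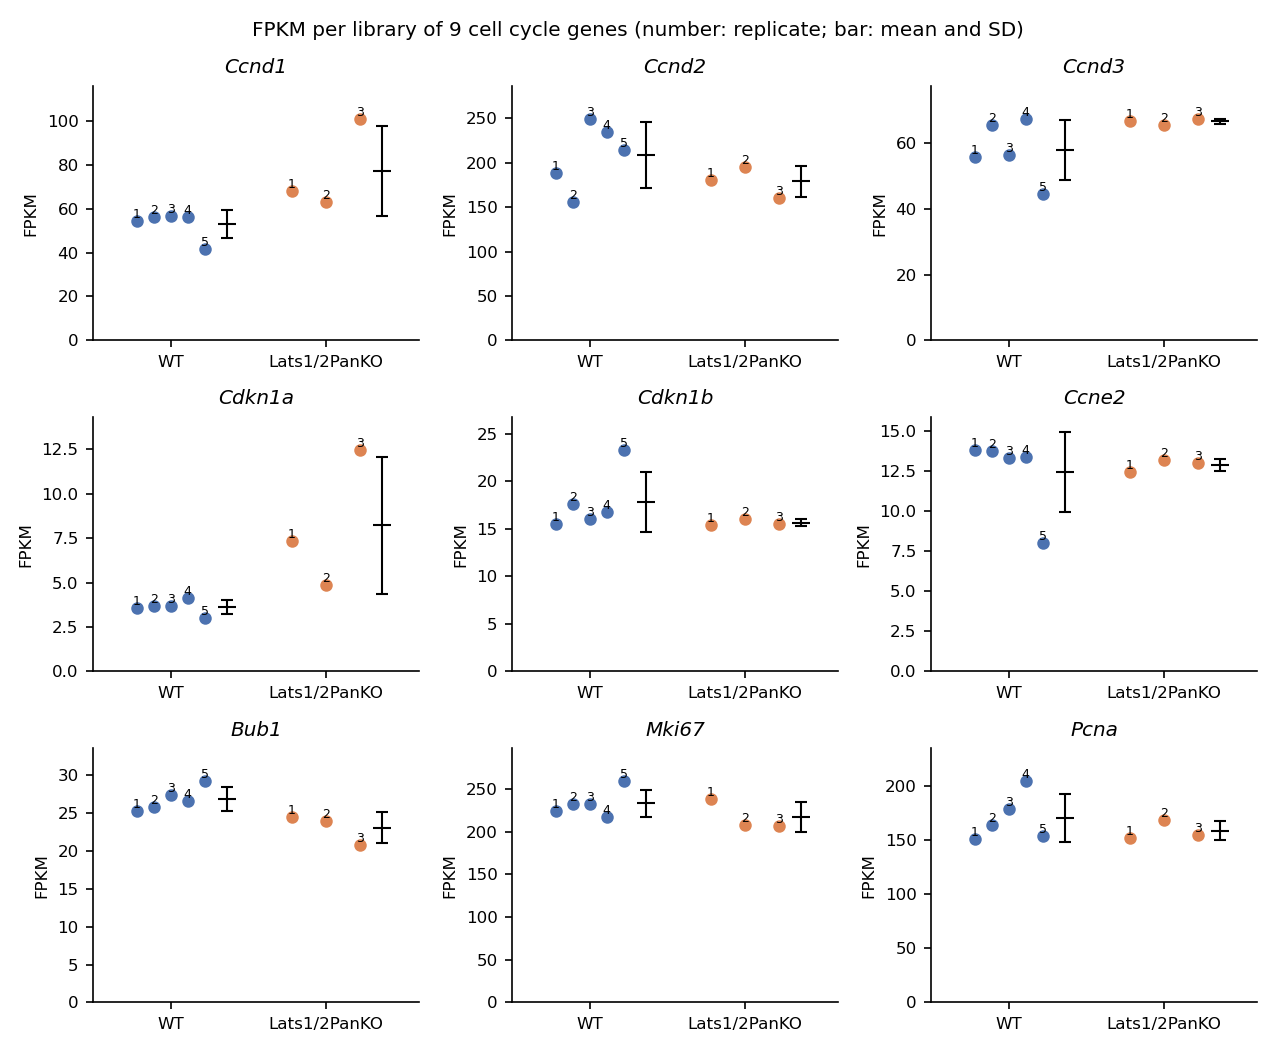
FPKM of 9 cell cycle genes in each library, on linear axes from 0, with the replicate number beside each point; black bars give the mean and SD of each group (5 WT and 3 Lats1/2PanKO). Ccnd1 and Cdkn1a lie above WT in all 3 Lats1/2PanKO buds, most in replicate 3, Bub1 lies below, and WT replicate 5 departs from its group in Ccnd1, Cdkn1b and Ccne2.

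*Cdkn1a* (chr17:29090986-29100722), whose promoter half-sites are shown above, had the largest fold change of the tested members. It was at 3.56, 3.70, 3.69, 4.14 and 3.02 FPKM in the WT replicates and at 7.33, 4.88 and 12.5 FPKM in the *Lats1/2PanKO* replicates. The groups did not overlap, and the *Lats1/2PanKO* buds spread far more than the WT buds. The means were 3.62 ± 0.403 FPKM (SD, n = 5) and 8.22 ± 3.87 FPKM (SD, n = 3), a ratio of 2.27. On the log2(FPKM + 1) scale, which understates the change of a gene at this level, the log2 fold change was 0.92 (standard error 0.23, 95% interval 0.39 to 1.44, adjusted p = 0.209 by limma; exact permutation test, p = 0.0179). Over the alternatives that left the libraries unpaired the adjusted p of limma ran from 0.0421, with array weights, to 0.464, without *Lats1/2PanKO* replicate 3, where the log2 fold change was 0.60 and the ratio 1.68. The order of the *Lats1/2PanKO* buds, replicate 3 above 1 above 2, was the same for *Cdkn1a*, *Ccnd1* and the summed epithelium markers. The part of epithelial content in the level of these genes was not tested.

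The other tested CDK inhibitors overlapped between the groups. *Cdkn1b*, which encodes p27, was at 15.6, 17.6, 16.0, 16.8 and 23.3 FPKM in WT buds and at 15.4, 16.0 and 15.5 FPKM in *Lats1/2PanKO* buds. Only WT replicate 5 stood out, and the log2 fold change of -0.17 (95% interval -0.44 to 0.11, adjusted p = 0.663 by limma) was -0.07 without it. The INK4 genes *Cdkn2c* and *Cdkn2d* had log2 fold changes of 0.04 and -0.05, with means over all libraries under 10 FPKM. *Cdkn1c*, the gene of the inhibitor p57 and not a member, was far higher than any of them, at 233, 249, 172, 178 and 164 FPKM in WT buds and 200.4, 191 and 235 FPKM in *Lats1/2PanKO* buds, with overlap and a log2 fold change of 0.08 that was -0.01 without replicate 3.

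In the Rb and E2F families all 8 intervals lay within 1.5-fold, and the class median was -0.06, with 2 genes higher and 6 lower. *Rb1*, the gene of the retinoblastoma protein, was at 4.86, 4.71, 4.23, 4.35 and 5.04 FPKM in WT buds and at 4.42, 3.51 and 4.03 FPKM in *Lats1/2PanKO* buds. It had the lowest log2 fold change of the class (-0.18, 95% interval -0.42 to 0.06, adjusted p = 0.584 by limma), and replicate 1 lay within the WT range. Its relatives *Rbl1* and *Rbl2* were at -0.00 and -0.07 on the same scale. *E2f4*, a repressor E2F that works with the Rb relatives in DREAM, was the most expressed gene of the class, at 44.1, 50.6, 54.7, 54.4 and 50.5 FPKM in WT buds and 53.6, 50.3 and 55.4 FPKM in *Lats1/2PanKO* buds (log2 fold change 0.06). *E2f5*, its close relative, was at 36.8, 37.9, 36.2, 43.3 and 42.5 FPKM against 36.2, 38.4 and 36.3 FPKM (log2 fold change -0.08). In both genes the groups overlapped. The activators *E2f1*, *E2f2* and *E2f3* had log2 fold changes of -0.07, 0.03 and -0.06.

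The replication genes had the narrowest range of log2 fold changes of the 6 classes. Their log2 fold changes ran from -0.09 to 0.01 with a median of -0.03, and all 7 intervals lay within 1.5-fold. *Pcna* was at 151, 164, 178, 204 and 154 FPKM in WT buds and at 152, 168 and 155 FPKM in *Lats1/2PanKO* buds (log2 fold change -0.09, 95% interval -0.33 to 0.14). *Mcm4*, another helicase subunit, was at 87.9, 81.0, 86.0, 91.6 and 87.0 FPKM against 82.8, 84.8 and 77.1 FPKM (log2 fold change -0.09, 95% interval -0.22 to 0.05, adjusted p = 0.638 by limma). For *Mcm4*, replicate 3 alone lay below the WT range, and without it the log2 fold change was -0.05. The helicase subunits *Mcm2* to *Mcm7* act as a ring of 1 copy each, and their RNA levels differed 2.08 to 2.201 times from the lowest to the highest subunit in WT buds and 1.99 to 2.16 times in *Lats1/2PanKO* buds. Their sum was 634 ± 40.1 FPKM (SD, n = 5) and 620.3 ± 18.3 FPKM (SD, n = 3). *Mcm5* and *Mcm6*, whose E2F sites are printed above, had log2 fold changes of 0.01 and -0.06.

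Among the G2 and mitosis genes, 14 of 15 were lower in *Lats1/2PanKO* buds, but by little: the class median was -0.04 and all 15 intervals lay within 1.5-fold. The exception was *Cdc20*, at 0.02. Summed over the class, WT buds ranged from 1160.2 to 1285 FPKM and *Lats1/2PanKO* replicates 1, 2 and 3 had 1179.7, 1237 and 1098 FPKM, so that only replicate 3, the bud with the fewest mesenchyme and endothelium transcripts, lay below the WT range. Without replicate 3 the class median was -0.01, and without replicate 2 it was -0.10. The part of cell composition in this was not tested.

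*Bub1* (chr2:127800200-127831859), which loads spindle checkpoint proteins on kinetochores, was the lowest of the class by log2 fold change. It was at 25.2, 25.8, 27.4, 26.6 and 29.2 FPKM in the WT replicates and at 24.5, 23.9 and 20.7 FPKM in the *Lats1/2PanKO* replicates. All 3 *Lats1/2PanKO* buds were below the WT buds, replicate 1 by less than 1 FPKM. The log2 fold change was -0.21 (standard error 0.08, 95% interval -0.39 to -0.04, adjusted p = 0.344 by limma; exact permutation test, p = 0.0179), and -0.14 without replicate 3. *Top2a* was at 252, 251, 277, 261 and 293 FPKM in WT buds and at 252, 261 and 222 FPKM in *Lats1/2PanKO* buds (log2 fold change -0.12, adjusted p = 0.625 by limma), with replicate 3 alone below WT and a log2 fold change of -0.05 without it. *Mki67* was at 225, 232, 232, 218 and 259 FPKM against 238, 207 and 207 FPKM (log2 fold change -0.10, 95% interval -0.28 to 0.08, adjusted p = 0.682 by limma), with replicate 1 inside the WT range and the others below it, and the log2 fold change was -0.07 without replicate 3. The cyclins that pair with CDK1 in G2, *Ccna2*, *Ccnb1* and *Ccnb2*, had log2 fold changes of -0.02, -0.04 and -0.03, and *Cdk1* itself -0.03. The mitotic kinases *Aurka*, *Aurkb* and *Plk1* were at -0.07, -0.10 and -0.04 and the checkpoint kinase *Bub1b* at -0.03. The survivin gene *Birc5*, whose product works beside Aurora B, was at -0.08. *Foxm1* and *Mybl2*, factors that raise mitotic genes, were at -0.03 and -0.10.

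**Figure D4:**
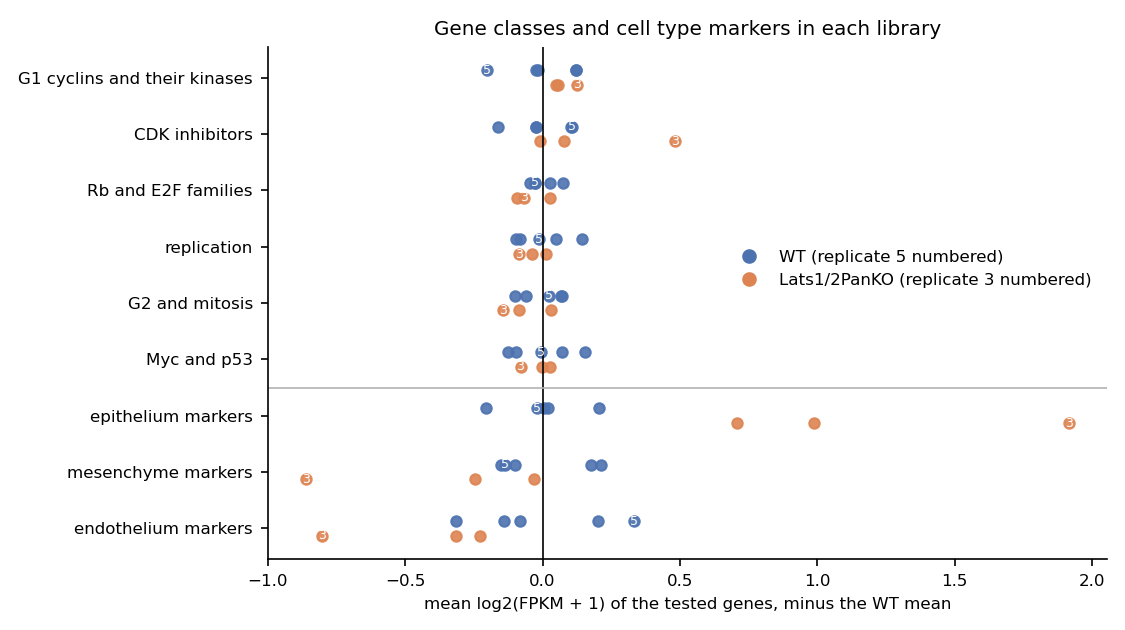
Mean log2(FPKM + 1) over the tested genes of each class or marker list in each library, as the difference from the WT mean; blue points are WT and orange points Lats1/2PanKO libraries, with WT replicate 5 and Lats1/2PanKO replicate 3 numbered. The Lats1/2PanKO points of the cell cycle classes lie between -0.14 and 0.13 except for the CDK inhibitors in replicate 3 (0.48), while epithelium markers lie 0.71 to 1.91 above the WT mean and mesenchyme markers of replicate 3 lie 0.86 below it.

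The plot of classes by library sets these shifts to scale. For G2 and mitosis the mean log2(FPKM + 1) of the *Lats1/2PanKO* replicates differed from the WT mean by -0.08, 0.03 and -0.14, and for replication by -0.04, 0.01 and -0.08. The WT buds themselves ran from -0.10 to 0.07 for G2 and mitosis and from -0.10 to 0.14 for replication. For epithelium markers the same measure was 0.99, 0.71 and 1.91. The epithelium markers thus differed further from WT in each *Lats1/2PanKO* bud than any of the 6 cell cycle classes did.

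*Myc*, a growth factor-responsive driver of cell growth, was at 19.4, 19.3, 19.8, 20.9 and 15.9 FPKM in WT buds and at 22.6, 18.6 and 23.0 FPKM in *Lats1/2PanKO* buds. Replicates 1 and 3 lay above the WT range and replicate 2 inside it (log2 fold change 0.16, 95% interval -0.07 to 0.39, adjusted p = 0.614 by limma). Its relative *Mycn* was higher than *Myc* in every library, at 36.7, 32.1, 50.5, 54.0 and 48.2 FPKM in WT and 39.6, 44.3 and 31.3 FPKM in *Lats1/2PanKO* buds. The WT spread of *Mycn* was wide, and its difference was -0.19 on the log2 scale with the interval reaching from -0.60 to 0.22, and -0.05 without *Lats1/2PanKO* replicate 3. *Trp53*, the p53 gene, was at 59.9, 63.4, 67.3, 71.0 and 72.1 FPKM against 60.4, 70.3 and 59.1 FPKM (log2 fold change -0.08), with replicate 3 just below the WT range and a log2 fold change of -0.03 without it. *Mdm2*, both a p53 target and its ubiquitin ligase, had a log2 fold change of 0.04 (95% interval -0.11 to 0.19).

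**Figure D5:**
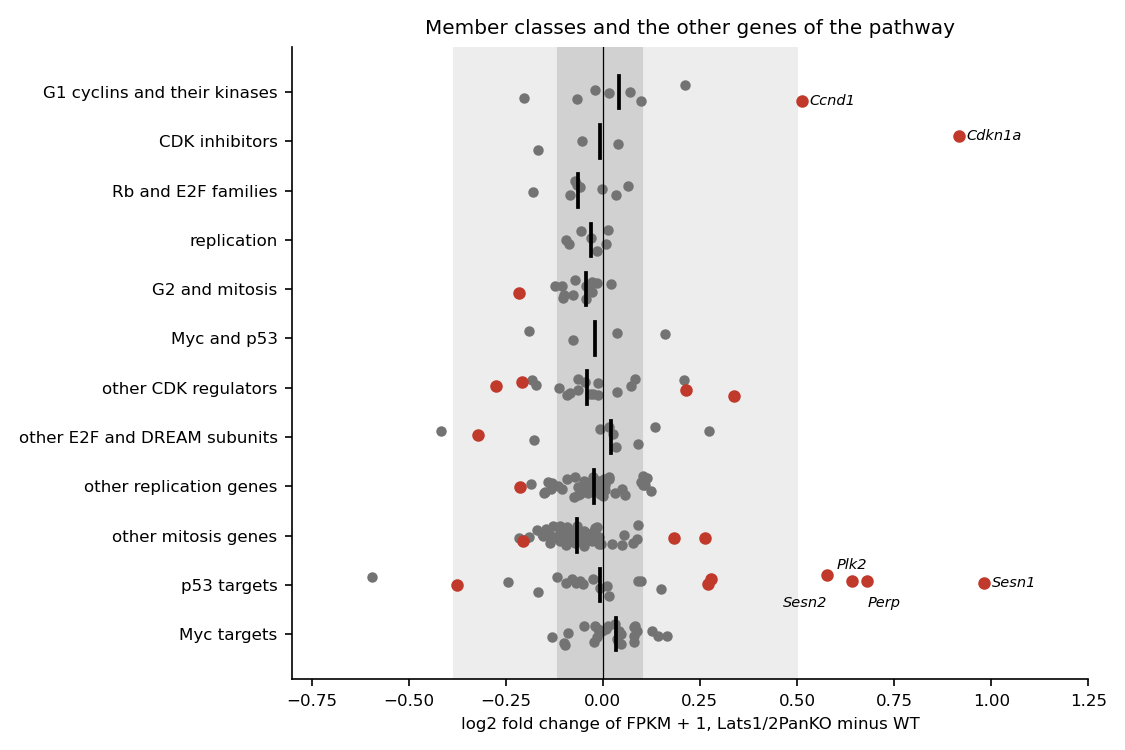
Log2 fold change of FPKM + 1 (Lats1/2PanKO minus WT) of each tested gene in the 6 member classes and 6 further lists; vertical bars are list medians, red points have an unadjusted p under 0.05 by limma, and the darker and lighter grey bands run between the 25th and 75th and between the 5th and 95th percentiles of all tested genes. List medians lie between -0.07 and 0.04, the points above 0.5 are Ccnd1, Cdkn1a and the p53 targets Sesn1, Sesn2, Plk2 and Perp, and the p53 target Fas lies at -0.60.

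The rest of the pathway was read from 6 further lists, none of whose genes passed the adjusted threshold by limma. An unadjusted p under 0.05, reached by 11.3% of all tested genes, was reached by 2.08% of the other replication genes, 5.45% of the other mitosis genes, 20% of the other CDK regulators, 10% of the E2F partners and DREAM subunits, 0% of the Myc targets and 30.4% of the p53 targets. Among 48 other replication genes the median log2 fold change was -0.02, and 1 had an unadjusted p under 0.05, *Rfc4*, a clamp loader subunit (-0.21; adjusted p = 0.435). *Cdt1*, the licensing factor, was next by p at -0.15. Among 55 tested genes of mitosis, 47 were lower, with a median of -0.07 that was -0.01 without *Lats1/2PanKO* replicate 3. In that list *Aspm*, which organises spindle poles, was at 35.1 to 39.1 FPKM in WT and 33.0, 34.6 and 29.3 FPKM in *Lats1/2PanKO* buds (log2 fold change -0.21), without overlap. *Kif23*, a motor of cytokinesis, was at 39.7 to 44.9 FPKM in WT and 48.2, 47.0 and 49.3 FPKM in *Lats1/2PanKO* buds (log2 fold change 0.18, adjusted p = 0.323 by limma), also without overlap, in the opposite direction. The third gene of that list with an unadjusted p under 0.05 was *Cit*, higher at 0.26 and at 0.16 without replicate 3.

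Among 20 tested CDK regulators the median was -0.04. *Cdkn3*, the gene of a CDK phosphatase, was at 8.65 to 11.5 FPKM in WT and 13.6, 14.6 and 11.6 FPKM in *Lats1/2PanKO* buds (log2 fold change 0.34, adjusted p = 0.315 by limma), with replicate 3 just above the WT range. *Cdk14* was at 14.8 to 17.3 FPKM against 13.96, 13.5 and 13.4 FPKM (-0.21), again without overlap. Both CDK-binding Cks genes reached an unadjusted p under 0.05 in opposite directions, *Cks2* at 0.21 and *Cks1b* at -0.27. Of 10 E2F partners and DREAM subunits, 1 did so, the E2F partner gene *Tfdp2* (-0.32, and -0.21 without replicate 3). The DREAM core gene *Lin52* had a lower value still (-0.42, adjusted p = 0.491 by limma), and the median of that list was 0.02. Of 26 Myc targets 0 did so, with a median of 0.04 and 16 higher, *Tfrc* (transferrin receptor, 0.16, and 0.10 without replicate 3) and *Bop1* (ribosome assembly, 0.13) having the smallest p.

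The p53 targets were the list with the widest spread. Of 23 tested, 6 had an unadjusted p under 0.05 and were higher (*Sesn1*, *Sesn2*, *Plk2*, *Perp*, *Bax* and *Aen*) and 1 was lower (*Ccng2*, -0.37), while the list median was -0.01. *Sesn1* and *Sesn2* encode sestrins, which restrain mTORC1 under stress. *Sesn1* was at 8.78, 11.8, 7.28, 8.03 and 7.68 FPKM in WT buds and at 16.0, 14.2 and 25.4 FPKM in *Lats1/2PanKO* buds, without overlap (log2 fold change 0.98, standard error 0.20, adjusted p = 0.140 by limma). *Sesn2* was at 4.03 to 5.39 FPKM in WT and 8.25, 5.61 and 10.6 FPKM in *Lats1/2PanKO* buds (0.58). As with *Cdkn1a*, *Lats1/2PanKO* replicate 3 was the highest for both, and without it the log2 fold changes were 0.74 and 0.39. *Bax*, a mediator of apoptosis, was at 0.28, and *Aen*, an apoptosis nuclease, at 0.27. *Perp*, a desmosome protein, and *Plk2* were at 0.68 and 0.64 with overlap, and at 0.44 and 0.32 without replicate 3. The lowest value of the list was that of *Fas*, a death receptor gene, at 0.743 to 2.40 FPKM in WT and 1.27, 0.769 and 0.142 FPKM in *Lats1/2PanKO* buds (log2 fold change -0.60, adjusted p = 0.485 by limma, and -0.32 without replicate 3). A p53 half-site was found in 7 of the 16 genes of this list with a window (43.8%, against 9.55% of all genes). *Sesn1*, *Bax* and *Aen* held one, as did *Ccng1*, *Gadd45a*, *Ei24* and *Polk*, which had no unadjusted p under 0.05, and the windows of *Sesn2* and *Plk2* held none.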

How the data were processed

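Total RNA from 8 pancreas buds was sequenced, and groups came from the labels (5 WT and 3 *Lats1/2PanKO*). Per the labels, FastQC, cutadapt 1.12, TopHat2 2.1.0 and Cuffdiff 2.2.1 were used on mm10 (GRCm38). The authors deposited FPKM per gene, and the methods speak of quantile normalization. Because the columns differ in their distributions, they were used as deposited. The table holds no counts, so no counting interval is given. The worth of a fragment was read from low values of 393 single-exon genes of at least 1500 bases.

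limma 3.58.1 in R 4.3.3 was fitted with a mean-variance trend to log2(FPKM + 1) of the 13777 genes whose mean reached 0.5 FPKM, and p-values were adjusted over all of them by the Benjamini-Hochberg method (threshold 0.05). limma was used because the authors' Cuffdiff test needs reads. The script was tested on simulated data of this comparison, with 200 of 13777 genes changed: 188 (94%) were recovered, 9 others were called, and 0 were called with no gene changed. Recovery was not tested at differences as small as those of most members, whose median size of log2 fold change was 0.066. Nothing states whether buds of a group came from different litters, so p-values measure only the spread between these buds.

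The members and all lists were chosen with earlier results of these data known. Values per library are given for members with an unadjusted p under 0.05 or no overlap, the 2 of each class with the smallest p and the most expressed of each class. Of each further list the 2 genes with the smallest p are named, and *Cdkn1c*. *Ccnd2*, *Mki67* and the other genes were named after their values were seen. Alternatives were leaving out each library, a block on replicate number, array weights, no trend, median-ratio scaling, quantile normalization, no filter, a 2 FPKM minimum, and a pseudocount of 0.1 FPKM. Coordinates are those of the deposited table, counted from 1. Promoters are from RefSeq, with motifs searched on both strands and the p53 half-site in its degenerate consensus form. Figures were drawn with matplotlib 3.10.9.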

Additional observations from a re-analysis of the deposited data

Results flagged for a closer look

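In 3 of 46 tested members, WT replicate 5 lay so far from the other WT buds that Dixon's criterion for 5 samples (0.71) was passed. Chance alone passes it in about 1 of 20 groups. *Ccnd1* was at 41.6 FPKM in that bud, against 54.4 to 56.7 FPKM in the other WT buds. *Ccne2* was at 8.03 FPKM against 13.3 to 13.8 FPKM. *Cdkn1b* was higher, at 23.3 FPKM against 15.6 to 17.6 FPKM. In the same library 1 fragment was worth 0.133 FPKM in 1000 bases, the most of the 8 libraries, and the part of depth in these values was not tested. Without that bud the log2 fold change was 0.43 for *Ccnd1*, -0.07 for *Ccne2* and -0.07 for *Cdkn1b*. Groups of 3 were not examined in this way.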

How the results depend on the processing

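Of the summary values recomputed under the alternatives, 249 kept their reading and 19 moved. No value changed from a call in one direction to a call in the other. The number of all genes called (2) became 174 with array weights, 1 with no trend, 18 with a pseudocount of 0.1 FPKM, and 0 to 69 as each library was left out, the highest without *Lats1/2PanKO* replicate 2. The number of members called (0) became 1, *Cdkn1a*, with array weights, and ran from 0 to 1 over the libraries left out, 1 coming without *Lats1/2PanKO* replicate 2 (log2 fold change 1.2, adjusted p = 0.0478 by limma). Members without overlap (3) ran from 3 to 8, with 5 without *Lats1/2PanKO* replicate 1 and 8 without replicate 2, where fewer samples make overlap rarer. The share of all tested genes without overlap is not given for these settings, so no result about the members is read from these counts. The median of the G1 class ran from -0.0699 (without WT replicate 5) to 0.0933, that of p53 targets from -0.0373 to 0.0863 (without *Lats1/2PanKO* replicate 2), and that of the Rb and E2F families was 0.00197 with array weights, and the cause was not tested. The unadjusted p of *Bub1* no longer fell under 0.05 with array weights or without *Lats1/2PanKO* replicate 3. That of *Myc* did fall under 0.05 with array weights and without *Lats1/2PanKO* replicate 2. The same held for *Ccnd2* without WT replicate 2 and for *Ccnd3* without WT replicate 4. In these settings in turn, 18.7%, 14.7%, 10.5% and 10.7% of all tested genes fell under 0.05. *Sesn1* passed the threshold with array weights (adjusted p = 0.0420 by limma).

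Replicate numbers are shared by the groups, but nothing states that they pair the buds, and the main fit left the buds unpaired. The correlations of deviations of same-numbered buds were 0.09, -0.10 and 0.07. With so few buds, these values cannot decide whether the numbers pair them. With the replicate number as a block 1 gene and 0 members were called, and 2 members kept an unadjusted p under 0.05 (*Ccnd1* and *Cdkn1a*, not *Bub1*). *Lats1/2PanKO* replicates 1 and 3 correlated best with the WT bud of their own number (0.09 and 0.07, against at most 0.05 with the others). Replicate 2 correlated best with WT replicate 4 (0.14), the largest of these values, and no pairing is read from them. Limits are 3 *Lats1/2PanKO* buds, a single stage, and bulk RNA of buds whose cell type markers differed. FPKM carry no counts, and *Cdkn2a* and *Cdkn2b* lie at a few fragments, where a difference was not detectable.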
